A study of Mus musculus with 16 samples.

Results

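The genotype effect shared by both sexes was measured in mouse liver as the difference between hCYP2B6-Tg and Cyp2b-null mice in a model with an additive term for sex and no interaction. All 16 libraries of the series entered it, 8 of each genotype, made up of 4 females and 4 males per genotype. Per the labels, mice of both genotypes were C57BL/6 and were fed a diet with 60% fat for 16 weeks, so the diet and the strain were common to all groups. The names denote a loss of mouse Cyp2b genes and a human CYP2B6 transgene. The sources used here do not give which mouse Cyp2b genes each genotype lacks, what promoter drives the transgene or how old the mice were. The study set out to relate human CYP2B6 to obesity on a fat-rich diet through the transcripts of the liver. Nothing in the labels says outright that each library is a separate animal, so the p-values measure spread between libraries that may in part be technical.

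CYP2B enzymes are cytochrome P450 monooxygenases of the liver endoplasmic reticulum that oxidise drugs, steroids and unsaturated fatty acids. Their genes are induced when xenobiotics or phenobarbital activate the nuclear receptor CAR, and the receptor PXR shares many of its targets. Mouse liver has several Cyp2b genes, whereas humans have CYP2B6 as the functional member.

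Libraries held 5584587 to 9672708 counts in the Cyp2b-null groups and 6520196 to 8946107 in the hCYP2B6-Tg groups. Albumin was the top gene of every library, and all 10 hepatocyte markers examined were expressed above the filter, with a median log2 difference of 0.01 between genotypes. Ribosomal RNA rows took 2.76% to 9.31% of the counts in Cyp2b-null and 4.27% to 7% in hCYP2B6-Tg libraries. Levels are given in CPM (counts scaled to library size), and differences as log2 fold changes of hCYP2B6-Tg over Cyp2b-null ± standard error, positive where the transgenic livers were higher.

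In 1 of 13470 tested genes did the common genotype effect pass a Benjamini-Hochberg adjusted p of 0.05 in edgeR's quasi-likelihood test. That gene was Marveld1, which encodes a MARVEL-domain membrane protein and was higher in hCYP2B6-Tg livers. The share of tested genes called was thus 0.00742% higher and 0% lower. At an unadjusted p under 0.05 there were 412 genes with a higher level in hCYP2B6-Tg livers (3.06% of those tested) and 464 with a lower level (3.44%), 876 in all against 673.5 under uniform p-values. The second smallest adjusted p was 0.164.

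The whole distribution of differences was narrow. The median absolute log2 fold change was 0.0887 and the median standard error 0.121, with 75.6% of genes at a standard error of 0.2 or less in log2 units. Estimates of 1 or more in size were found for 33 genes. Of all tested genes, 6578 (48.8%) had the same sign of the genotype difference in females as in males. Genotype accounted for 4.48% of the variance of the tested genes and sex for 42.7%, and all 4 groups together for 52%. An equal share per degree of freedom would be 6.67%. That share counts the variance taken by sex, so it sets no level for genotype once sex is removed. After sex was removed, the libraries of the 2 genotypes overlapped on each of the first 6 principal components, which carried 11.9%, 10.3%, 9.57%, 8.74%, 7.55% and 7.14% of the remaining variance.

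**Figure D1:**
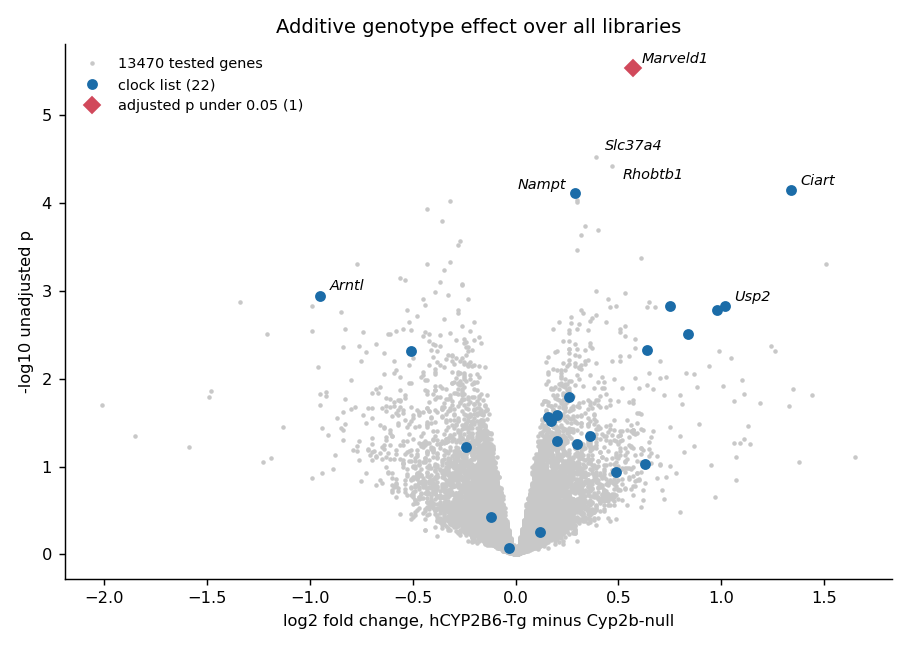
Additive genotype effect in 13470 genes: the horizontal axis is the log2 fold change of hCYP2B6-Tg over Cyp2b-null, the vertical axis the −log10 unadjusted p from edgeR, and each point a gene. Marveld1 (diamond) is the single gene past the adjusted threshold, and the 22 tested clock genes are shown as filled circles, with Ciart farthest to the right of them and Arntl farthest to the left.

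Marveld1 lies on chromosome 19 at 42147389–42151703 (GRCm38.p6, plus strand). The 250 bases before its start are shown because it is the single gene called; they held no CACGTG E-box, the letters marked in the clock gene promoters further on.
Marveld1, chr19:42147139-42147388, plus strand: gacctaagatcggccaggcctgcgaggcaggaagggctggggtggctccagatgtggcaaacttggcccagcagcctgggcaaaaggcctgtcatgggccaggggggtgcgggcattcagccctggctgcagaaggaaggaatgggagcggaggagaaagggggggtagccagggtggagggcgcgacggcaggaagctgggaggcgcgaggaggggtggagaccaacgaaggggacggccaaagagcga

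Among females, Marveld1 stood at 17.2, 17.0, 14.9 and 20.7 CPM in the Cyp2b-null libraries and at 23.3, 28.4, 26.8 and 35.2 CPM in the hCYP2B6-Tg libraries. Among males the values were 24.9, 26.1, 27.1 and 28.5 CPM in Cyp2b-null and 42.1, 33.7, 30.5 and 39.7 CPM in hCYP2B6-Tg livers. Within each sex, every hCYP2B6-Tg library lay above every Cyp2b-null library, while across the sexes the genotypes overlapped, with males of each genotype higher on average than its females. The mean rose from 22.0 ± 5.26 CPM to 32.5 ± 6.45 CPM (SD, n = 8 each), or by 0.57 ± 0.10 on the log2 scale (edgeR adjusted p = 0.0399). It was 0.70 ± 0.14 in females and 0.45 ± 0.13 in males, and the difference between these had an edgeR p of 0.194.

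This call was close to the threshold. Leaving out any one of null_female 1, null_female 4, tg_female 2, tg_female 5, null_male 1, null_male 3, tg_male 2 or tg_male 5 (group and title number) ended it, with adjusted p-values between 0.00896 and 0.152 and log2 fold changes between 0.51 and 0.62 over the 16 omissions.

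Separation of the genotypes was also counted in both sexes at once. With all 4 libraries of one genotype above all 4 of the other in females and again in males, 4 genes were higher in hCYP2B6-Tg livers (0.0297% of those tested) and 3 were lower (0.0223%). These were chosen after their values were seen. Genotype labels can be arranged within the sexes in 4900 ways, so among 13470 genes a few separate by chance alone. The numbers found were not compared with that. The higher genes were Marveld1, Baiap2l1, Fam102a and Fra10ac1, and the lower genes were Prkab1, Trim34a and Jak2. Baiap2l1 and Trim34a were in addition separate across all 8 against 8 libraries. Apart from Marveld1 these genes had adjusted p-values above 0.05 in edgeR.

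Baiap2l1 encodes an I-BAR domain protein that shapes membrane and actin. It ran from 29.3 to 35.9 CPM in the 8 Cyp2b-null libraries and from 36.8 to 46.3 CPM in the 8 hCYP2B6-Tg libraries, a log2 difference of 0.30 ± 0.06 (edgeR adjusted p = 0.164). Its neighbour Bri3 overlaps it by 49 bases on chromosome 5 and had the same difference, 0.30 ± 0.07. Whether counts from the overlap were assigned to the wrong gene was not tested. Trim34a, a TRIM family gene, stood at 10.9, 12.5, 10.7 and 11.6 CPM in Cyp2b-null females and 10.1, 10, 9.54 and 7.04 CPM in hCYP2B6-Tg females. In males its values were 12.6, 10.7, 10.3 and 11.1 CPM against 7.48, 8.31, 7.77 and 6.89 CPM. The lowest Cyp2b-null library was thus just above the highest hCYP2B6-Tg library, and the log2 fold change was -0.43 ± 0.11 (edgeR adjusted p = 0.321). Prkab1 encodes the beta 1 subunit of the energy sensor AMPK. Its mean was 25.2 ± 3.68 CPM without and 19.7 ± 2.54 CPM with the transgene (SD, n = 8), -0.35 ± 0.09 on the log2 scale.

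**Figure D2:**
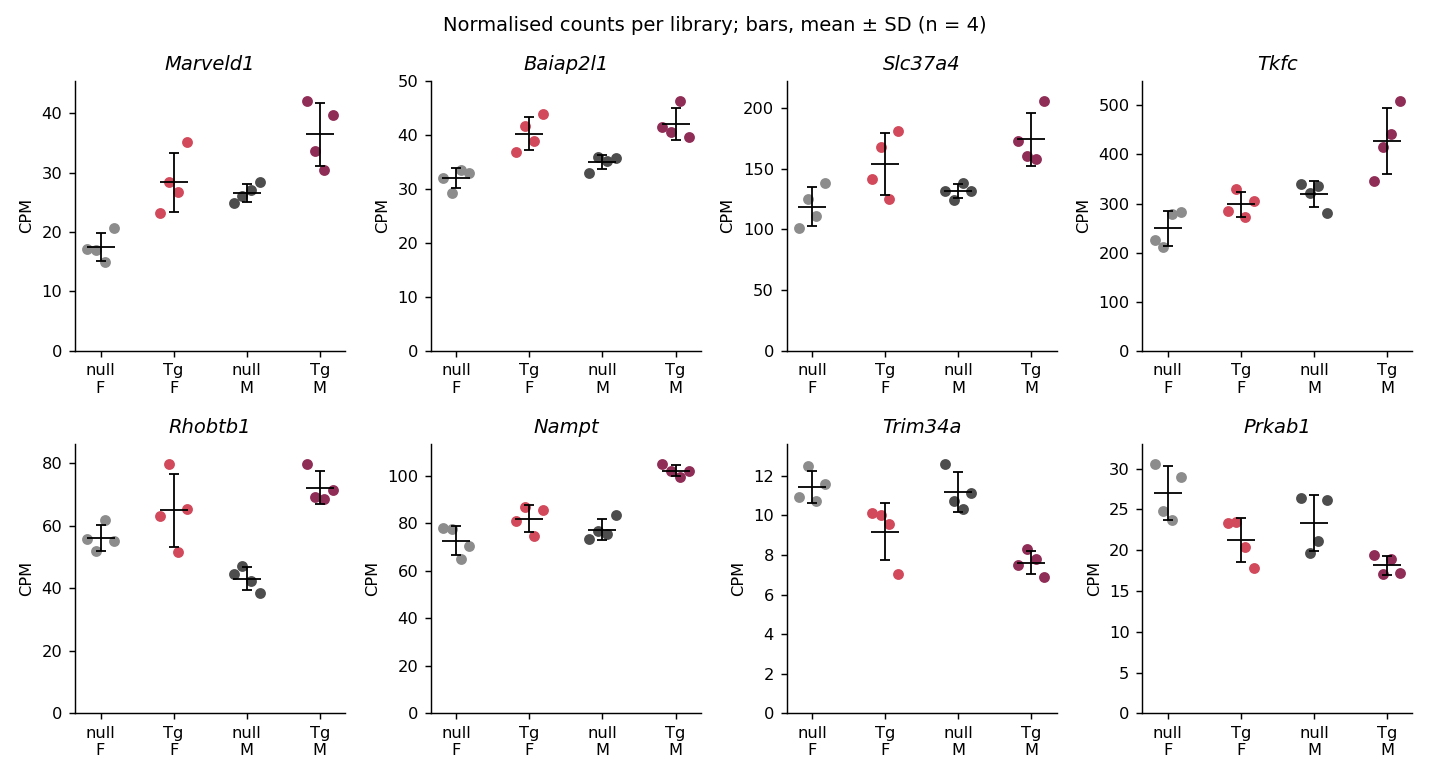
CPM of 8 genes by library in the 4 groups (null, Cyp2b-null; Tg, hCYP2B6-Tg; F, female; M, male); points are libraries and bars the mean ± SD of n = 4. Marveld1 and Baiap2l1 are higher and Trim34a and Prkab1 lower in every hCYP2B6-Tg library than in any Cyp2b-null library of the same sex.

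The 23 genes that followed Marveld1 by p-value, leaving out the pseudogene Cyp2a21-ps at rank 21, are given as values, since none passed the adjusted threshold; 16 of them did with DESeq2 and 8 with edgeR without a filter on low counts. Of the 24 together, 12 had higher and 12 lower estimates, between 0.27 and 1.34 in size on the log2 scale, and all 24 had the same sign in females and males, which the additive p-value favours by construction. In 1 of the 24, Rhobtb1, the genotype difference differed between the sexes at an unadjusted edgeR p under 0.05.

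Slc37a4 encodes the transporter that carries glucose 6-phosphate into the endoplasmic reticulum for glucose release. It stood at 101, 125, 111 and 138 CPM in Cyp2b-null females and 142, 168, 125 and 181 CPM in hCYP2B6-Tg females. In males it stood at 132, 124, 138 and 132 CPM against 173, 161, 158 and 206 CPM. The males were separate and the females overlapped through tg_female 4, and the log2 fold change was 0.39 ± 0.08 (edgeR adjusted p = 0.164). Tkfc, a kinase that acts on glyceraldehyde in fructose breakdown, averaged 284 ± 47.3 CPM without and 363 ± 83.6 CPM with the transgene (SD, n = 8), an estimate of 0.34 ± 0.08. Nampt, which makes the NAD precursor nicotinamide mononucleotide, averaged 75.0 ± 5.54 and 92.0 ± 11.5 CPM, and its 4 hCYP2B6-Tg males lay at 99.5 to 105 CPM, above the other 12 libraries. Nags, whose product N-acetylglutamate switches on the urea cycle, had an estimate of -0.28 ± 0.07, and Hacl1, a peroxisomal lyase of fatty acid alpha-oxidation, one of -0.32 ± 0.08.

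Rhobtb1 averaged 56.2 ± 4.19 and 64.9 ± 11.6 CPM in Cyp2b-null and hCYP2B6-Tg females and 43.1 ± 3.72 and 72.3 ± 5.23 CPM in males (SD, n = 4). Its log2 fold change was 0.21 ± 0.11 in females and 0.74 ± 0.11 in males, a difference with an edgeR p of 0.00177 (adjusted 0.358), and the common value of 0.47 ± 0.09 lies between the sexes. Agtr1a, the angiotensin II receptor, had an estimate of -0.36 ± 0.08, and Map2k6, the kinase that activates p38, one of 0.61 ± 0.15. Cebpb, a transcription factor of metabolism and the acute phase response, averaged 72.8 ± 19.1 and 95.3 ± 20.4 CPM (SD, n = 8), an estimate of 0.40 ± 0.09. Ndrg1, a stress-responsive gene, averaged 17.7 ± 6.64 and 10.1 ± 2.55 CPM, an estimate of -0.77 ± 0.18. The ubiquitin ligase genes Trim25 and Rnf217 had estimates of -0.32 ± 0.07 and -0.43 ± 0.09, and Fbxo6, a substrate receptor for glycoproteins, one of -0.37 ± 0.10. The others were Slc16a12 (a monocarboxylate carrier family member, 0.30 ± 0.07), Fam102a (0.32 ± 0.07), Zfp445 (a KRAB zinc finger protein of imprinting control, -0.27 ± 0.06), Usp6nl (-0.56 ± 0.14) and Zfp408 (-0.54 ± 0.14).

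The mouse Cyp2b genes themselves fell below the expression filter and were examined as counts. Their cluster lies on chromosome 7 together with Cyp2a genes, and a window of 500000 bases beyond its ends held 54 rows, of which 27 were in the fit across all genes and 15 more had at least 5 counts. Cyp2b10, Cyp2b19 and Cyp2b23 were counted almost solely in hCYP2B6-Tg livers. For these 15 rows the genotype labels were permuted within each sex, which gives 4900 arrangements and a smallest two-sided p of 0.000408.

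Cyp2b10 is the form that CAR induces most strongly. It had 0, 1, 0 and 1 counts in Cyp2b-null females, 6, 9, 7 and 4 in hCYP2B6-Tg females, 0 in each Cyp2b-null male, and 3, 1, 15 and 14 in hCYP2B6-Tg males. Within each sex the genotypes did not overlap. The sums were 2 against 59 counts, a ratio of 27.9 (95% counting interval 7.39 to 236), and the exact permutation p was 0.000408, the smallest possible (adjusted 0.00204 over the 15 rows). Cyp2b19 had 0 counts in each Cyp2b-null female and 5, 6, 1 and 6 in hCYP2B6-Tg females, then 0, 0, 1 and 0 against 4, 2, 10 and 12 in males. Its sums of 1 against 46 gave a ratio of 43.5 (7.43 to 1760), with the same exact permutation p. Cyp2b23 had no count in any of the 8 Cyp2b-null libraries. In hCYP2B6-Tg livers the females had 9, 11, 1 and 7 counts and the males 2, 3, 25 and 8. Its sum of 66 made it at least 20.8-fold higher, taking 3 counts over the 8 libraries (0.0521 CPM) as the limit of a count of 0, again with an exact permutation p of 0.000408.

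These levels were low even where the genes were counted. In hCYP2B6-Tg livers they averaged 0.924 ± 0.555 CPM for Cyp2b10, 0.720 ± 0.409 CPM for Cyp2b19 and 1.01 ± 0.838 CPM for Cyp2b23 (SD, n = 8). Library tg_male 4 alone held 25 of the 66 Cyp2b23 counts. Without any one library in turn, the exact permutation p-values stayed at or below 0.00204 for Cyp2b10, 0.00245 for Cyp2b19 and 0.00449 for Cyp2b23. With no filter on low counts, edgeR called the same 3 rows, with adjusted p-values of 0.00054, 0.00224 and 2.08e-05 over 25553 rows.

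Cyp2b9, a form known to be higher in females, summed to 27 counts without and 84 with the transgene, a ratio of 2.94 (1.89 to 4.73). Its exact permutation p was 0.0241 (adjusted 0.0903), and 27 of the 84 counts were in tg_male 4. Cyp2b13, the other female-biased form, had 4 counts in each genotype. The split among these genes is uncertain, since they share sequence. Of the 50-base words of the GENCODE reference transcripts, 10.2% in Cyp2b10, 2.45% in Cyp2b19, 4.44% in Cyp2b23 and 11.2% in Cyp2b9 also occurred in another gene's transcript, for Cyp2b10 and Cyp2b9 mostly in Cyp2b13. Reads of human CYP2B6 could also have been assigned to these rows, and whether they were was not tested. A row for the human gene was not analysed here.

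**Figure D3:**
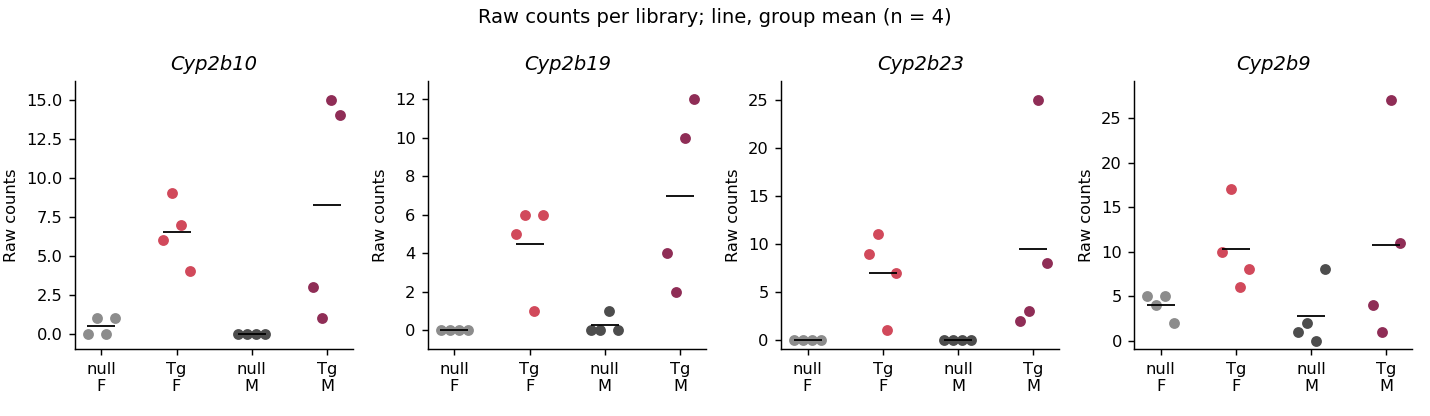
Raw counts of 4 Cyp2b genes in each library of the 4 groups (null, Cyp2b-null; Tg, hCYP2B6-Tg; F, female; M, male); lines mark the group mean of n = 4. Cyp2b10, Cyp2b19 and Cyp2b23 have 0 or 1 count in each Cyp2b-null library and 1 to 25 in each hCYP2B6-Tg library, and Cyp2b9 is counted in both genotypes.

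No gene beside the cluster passed the adjusted threshold. Cyp2a4, a steroid hydroxylase higher in females, had an estimate of 0.56 ± 0.23, Cyp2a5, the coumarin hydroxylase, 0.32 ± 0.17, and Cyp2f2 0.15 ± 0.07. Cyp2a4 was at 0.11 ± 0.28 in females and 1.04 ± 0.29 in males (edgeR p of the difference 0.04, adjusted 0.644). The pseudogene Cyp2a21-ps had the largest estimate of the tested rows in the window, 1.51 ± 0.38 (edgeR adjusted p = 0.321). Cyp2a genes are near copies of each other, so the single values are uncertain. Of the 15 tested genes that are not P450 genes on a list for the flanks, 5 had higher and 10 lower estimates, with a median of -0.03. Of the 15 low rows, 3 passed the adjusted exact test, and all 3 were Cyp2b genes.

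Of the lists examined, the clock list had the largest share of genes at a low unadjusted p. The liver clock is a feedback loop in which BMAL1 (Arntl) and CLOCK activate Per, Cry and Nr1d genes through E-boxes, and the products repress BMAL1 and CLOCK activity or Arntl transcription. Of 23 listed genes 22 were tested, and 0 passed the adjusted threshold. At an unadjusted edgeR p under 0.05 there were 12 with higher and 2 with lower estimates in hCYP2B6-Tg livers, 63.6% of the list against 6.50% of all tested genes (3.06% and 3.44% by direction). The median log2 fold change of the 22 was 0.27, against 0 over all genes, and 18 had the same sign in both sexes. The list was fixed after earlier results of these data, including higher clock genes in males, were known, so its direction is not independent evidence. The labels give no time of collection.

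Ciart, a repressor of BMAL1 and CLOCK, stood at 0.351, 1.56, 2.07 and 2.60 CPM in Cyp2b-null females and 2.56, 2.68, 2.27 and 5.50 CPM in hCYP2B6-Tg females. In males it stood at 0.903, 3.03, 2.98 and 1.73 CPM against 9.32, 6.62, 5.74 and 7.72 CPM. The males were separate, and the females overlapped narrowly. Its log2 fold change was 1.34 ± 0.28 (edgeR adjusted p = 0.164), 0.90 ± 0.40 in females and 1.72 ± 0.37 in males.

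Per1, a period gene, stood at 11.9, 11.4, 17.6 and 8.75 CPM in Cyp2b-null females and 10.1, 23.1, 11.8 and 21.4 CPM in hCYP2B6-Tg females. In males it stood at 8.31, 13.8, 11.5 and 10.5 CPM against 37.1, 23.2, 27.2 and 18 CPM. The male groups were separate and the female groups overlapped, with a common estimate of 0.84 ± 0.24. Per2 had an estimate of 0.64 ± 0.19. Usp2, a rhythmic ubiquitin protease, averaged 8.08 ± 4.12 and 16.9 ± 7.84 CPM (SD, n = 8), an estimate of 1.02 ± 0.26, and Wee1, a cell cycle kinase under clock control, one of 0.75 ± 0.20. Bhlhe41, a repressor that binds E-boxes, had an estimate of 0.98 ± 0.28, with 1.94 ± 0.45 in females and 0.54 ± 0.31 in males (edgeR p of the difference 0.0186, adjusted 0.567). Its Cyp2b-null females stood at 0, 0.78, 0.576 and 0.625 CPM, so the female estimate rests on low counts. Nampt, Cry2 (0.26 ± 0.10), the output factors Tef (0.36 ± 0.17) and Hlf (0.16 ± 0.07), and the Arntl activator Rora (0.17 ± 0.08) were also among the 12.

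Arntl lay on the lower side. It stood at 17.6, 3.90, 8.75 and 8.34 CPM in Cyp2b-null females and 3.36, 5.82, 5.6 and 4.86 CPM in hCYP2B6-Tg females. In males the values were 5.96, 3.99, 2.30 and 4.75 CPM against 1.68, 1.69, 1.91 and 3.21 CPM. The groups overlapped in both sexes through null_female 3 and null_male 3, and the log2 fold change was -0.95 ± 0.25 (edgeR adjusted p = 0.461), the same in females and males (-0.95 each). Without null_female 1, its highest library, the estimate was -0.72. Ppp1r3c, a glycogen-targeting phosphatase subunit, was the other, at -0.51 ± 0.15. Clock (-0.24 ± 0.12), Cry1 (-0.03 ± 0.17), Nr1d1 (0.12 ± 0.20), Nr1d2 (0.20 ± 0.09), Per3 (0.49 ± 0.29) and Dbp (0.63 ± 0.35) had an unadjusted p above 0.05. Bhlhe40 and Nfil3 had opposite signs in the sexes, -0.07 in females and 0.67 in males for Bhlhe40 and 0.25 and -0.54 for Nfil3, as had Rora (-0.04 and 0.39) and Nr1d1 (0.48 and -0.24).

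**Figure D4:**
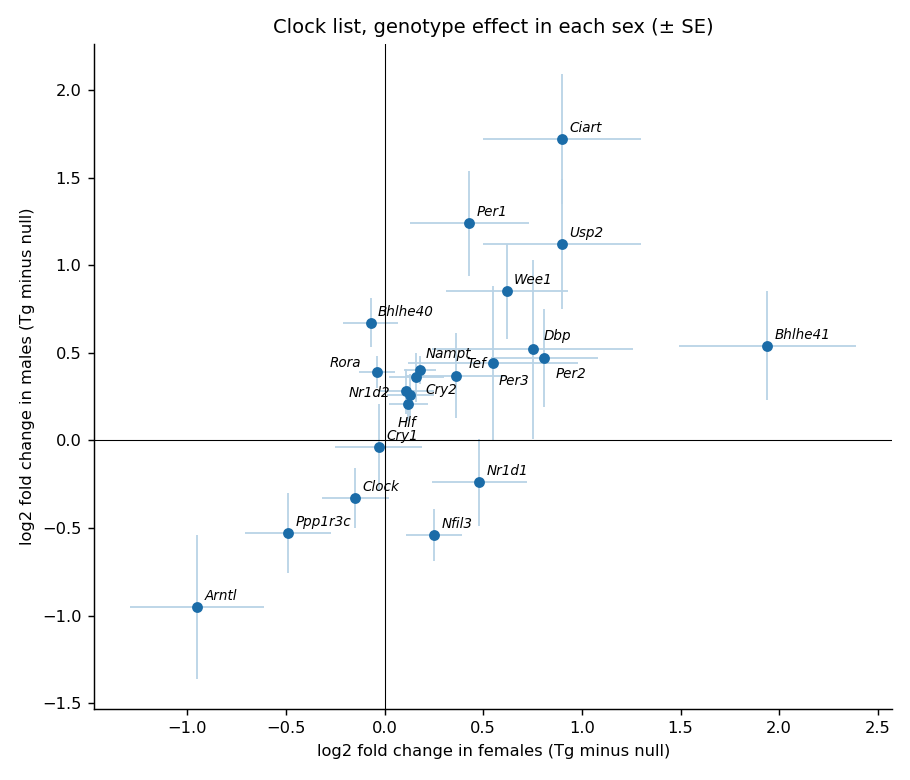
Genotype difference of the 22 tested clock list genes in females (horizontal axis) and males (vertical axis), as log2 fold change of hCYP2B6-Tg over Cyp2b-null with standard errors from edgeR (4 libraries per group). Most points lie at the upper right, where both sexes are above 0, with Arntl, Ppp1r3c, Clock and Cry1 at the lower left and 4 genes where the sexes differ in sign.

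Fitted on males alone, 16 of the clock genes had an unadjusted p under 0.05, and on females alone 4 of 21 tested. With single libraries left out the count ran from 11 to 18 and the list's median from 0.23 to 0.32. In a list of genes that respond to tissue handling, 1 of 13 tested (Gadd45g, 1.35 ± 0.48) had an unadjusted edgeR p under 0.05, and the list's median was 0.13.

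Promoters of 3 clock genes with higher estimates are shown because they hold the E-box CACGTG, in capitals, which BMAL1 and CLOCK bind. Each is the 250 bases before a start site of the gene in RefSeq (GRCm38.p6), written 5′ to 3′ along the gene. For Per1, which has 2 start sites, the window with the E-box is given. The Ciart start site lies inside the gene's outer RefSeq coordinates, 95878500 to 95882257, so the end of its window overlaps the gene.
Ciart, chr3:95882229-95882478, minus strand: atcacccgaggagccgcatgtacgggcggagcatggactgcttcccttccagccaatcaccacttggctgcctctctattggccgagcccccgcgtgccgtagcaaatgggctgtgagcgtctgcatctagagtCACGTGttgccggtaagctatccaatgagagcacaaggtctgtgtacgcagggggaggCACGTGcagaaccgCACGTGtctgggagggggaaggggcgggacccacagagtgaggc
Per1, chr11:69098699-69098948, plus strand: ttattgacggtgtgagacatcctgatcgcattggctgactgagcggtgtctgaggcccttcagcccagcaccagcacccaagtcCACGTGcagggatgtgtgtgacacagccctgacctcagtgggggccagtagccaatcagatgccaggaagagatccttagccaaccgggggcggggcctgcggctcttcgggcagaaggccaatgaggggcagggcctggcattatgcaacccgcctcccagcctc
Bhlhe41, chr6:145865421-145865670, minus strand: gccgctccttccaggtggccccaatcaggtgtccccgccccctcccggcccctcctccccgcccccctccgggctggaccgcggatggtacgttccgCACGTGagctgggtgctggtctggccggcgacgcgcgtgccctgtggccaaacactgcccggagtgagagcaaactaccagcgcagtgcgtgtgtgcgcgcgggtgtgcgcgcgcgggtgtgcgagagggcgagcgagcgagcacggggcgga
Ciart held 3 copies and the other two 1 each. CACGTG reads the same on both strands, so a match counts for either. Of the 19 clock list genes with a window, 6 held it (31.6%): Bhlhe41, Ciart, Cry1, Per1, Ppp1r3c and Tef. Among tested genes with a window 969 of 9585 did (10.1%), and of the 24 genes named by p-value 22 had a window and 6 held it (27.3%), with Ciart in both sets. A match describes letters in the window and not binding.

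The heat shock list, of cytosolic and mitochondrial chaperones, followed. Of 16 tested genes 14 had higher estimates, 6 of them at an unadjusted edgeR p under 0.05 (37.5%), against 3.06% of all tested genes on the higher side. None was called, and the median was 0.17. It was 0.36 in females and 0.08 in males. Hspb1, a small chaperone, stood at 4.92, 7.17, 4.72 and 4.58 CPM in Cyp2b-null females and 7.40, 11.6, 9.99 and 27.8 CPM in hCYP2B6-Tg females. In males it stood at 9.03, 4.54, 7.85 and 3.74 CPM against 7.64, 7.39, 7.09 and 10.8 CPM, so that the groups were separate in females and overlapped in males. Hspa8, the constitutive HSP70, had an estimate of 0.38 ± 0.14, and the mitochondrial chaperonin genes Hspd1 and Hspe1 0.13 ± 0.05 and 0.23 ± 0.09. Chordc1 (0.29 ± 0.12) and Hspa4l (0.32 ± 0.14) were the others of the 6. On females alone 6 genes had an unadjusted p under 0.05 and on males alone 0, and without null_female 1 the count fell to 3.

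Targets of CAR and PXR, the receptors that control CYP2B genes, had 0 of 33 tested genes at an unadjusted edgeR p under 0.05 and a median of 0.02, with 19 higher and 14 lower estimates. The antioxidant genes under NRF2 and the oxidative phosphorylation genes likewise had 0 of 21 and 0 of 30. Epoxygenases and oxylipin enzymes, which oxidise polyunsaturated fatty acids as CYP2B enzymes do, had 1 of 24, and their median was 0.02. Over all tested genes the share at that level was 6.50%, so lists of these sizes would hold few such genes.

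Over all tested genes 50% had higher additive estimates and 48.8% had the same sign in both sexes. In fatty acid oxidation 29 of 32 genes had higher additive estimates, with a median of 0.08 (0.12 in females and 0.03 in males). Of these 32 genes 20 had the same sign in both sexes, and 1, Fgf21, had an unadjusted p under 0.05. Fgf21, a fasting hormone secreted by liver, lay on the lower side at -0.92 ± 0.34 (edgeR adjusted p = 0.631). Cholesterol synthesis genes had 20 of 25 higher, with a median of 0.11 and 1 gene at an unadjusted p under 0.05. The median was -0.05 in females and 0.25 in males, and 8 of the 25 had the same sign in both sexes. For lipogenesis the common value averaged over opposite directions: the list's median was -0.19 in females and 0.54 in males, 0.11 in the additive model, and 2 of 20 genes had the same sign in both sexes. Acaca, the rate-limiting acetyl-CoA carboxylase of fatty acid synthesis, was the 1 gene there at an unadjusted p under 0.05 (0.35 ± 0.15). It was at 0.09 in females and 0.61 in males. Unfolded protein response genes had 23 of 26 higher, with a median of 0.34 in females and 0.01 in males, 14 with the same sign in both sexes and 2 at an unadjusted p under 0.05. The shares at that level were 3.12% for fatty acid oxidation, 4% for cholesterol synthesis, 5% for lipogenesis and 7.69% for the unfolded protein response. Over all tested genes the share was 6.50%.

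Genes of glucose handling had 5 higher and 1 lower estimate at an unadjusted edgeR p under 0.05 among 32 tested (18.8%, against 6.50% of all tested genes). The list had 22 higher and 10 lower estimates in all, with a median of 0.10 (-0.02 in females and 0.16 in males). Of its 32 tested genes 18 had the same sign in both sexes. Besides Slc37a4 and Ppp1r3c, those at an unadjusted p under 0.05 included the glucose transporter Slc2a2 (0.20 ± 0.06) and pyruvate carboxylase Pcx (0.17 ± 0.06). The fructose bisphosphate regulators Pfkfb3 (0.57 ± 0.25) and Pfkfb1 (0.23 ± 0.11) were the others. Slc2a2 was at 0.09 in females and 0.30 in males. Among 23 genes of folliculin, AMPK and nutrient sensing, 17.4% had an unadjusted edgeR p under 0.05. Nampt, Fnip2 (0.51 ± 0.16) and Prkag2 (0.20 ± 0.09) were on the higher side and Prkab1 on the lower. Fnip2 was at 0.09 in females and 0.93 in males (edgeR p of the difference 0.000754, adjusted 0.292). The list had 12 higher and 11 lower estimates with a median of 0.01. In the pericentral zone list, kept up by WNT signals near the central vein, 3 of 16 genes (18.8%) had an unadjusted edgeR p under 0.05. These direct WNT targets were lower: Axin2 (-0.53 ± 0.15), Tbx3 (-0.63 ± 0.23) and Sp5 (-0.66 ± 0.29). In females and males, Axin2 was at -0.48 and -0.58, Tbx3 at -0.20 and -1.07, and Sp5 at -0.46 and -0.82. The list had 6 higher and 10 lower estimates, a median of -0.04 (0.10 in females and -0.21 in males), and 5 genes with the same sign in both sexes. The WNT targets Lgr5 (0.59 in females, -0.28 in males) and Notum (0.27 and -0.21) were among those with opposite signs. Among 21 hepatokines tested, 12 had higher and 9 lower estimates (median 0.03), and 3 (14.3%) were on the lower side at that level, Angptl8 (-0.80 ± 0.27), Fgf21 and Inhbe (-0.46 ± 0.21). Bile acid genes had 16 higher and 12 lower estimates (median 0.02), with 1 higher and 3 lower of 28 at that level (14.3%). Among them was Nr0b2, the repressor SHP (-0.68 ± 0.24), at -0.16 in females and -1.22 in males (edgeR p of the difference 0.0156, adjusted 0.548). No gene of these lists passed the adjusted threshold.

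**Figure D5:**
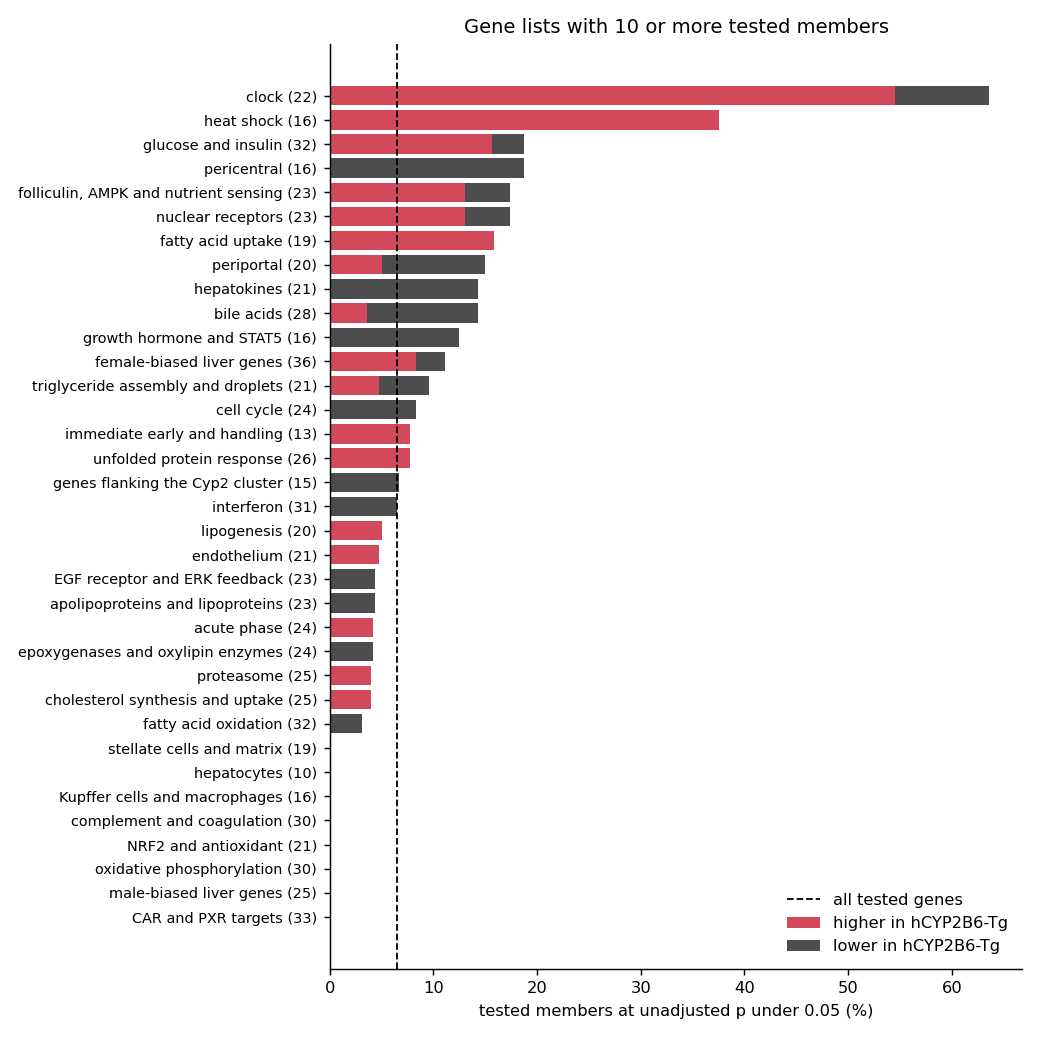
Share of tested members at an unadjusted edgeR p under 0.05 in each of the 35 gene lists with 10 or more tested members (number tested in brackets), split by direction; the dashed line is the 6.50% over all tested genes. The clock list at 63.6% and the heat shock list at 37.5% are the longest bars, and the CAR and PXR targets have none.

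No cell type marker passed the adjusted threshold. Of 16 tested Kupffer cell and macrophage markers 6 had higher and 10 lower estimates, with a median of -0.05. For endothelium the counts were 11 and 10 of 21 (median 0.02), and for stellate cells and matrix 6 and 13 of 19 (median -0.06). At an unadjusted edgeR p under 0.05 there were 0, 1 and 0 genes of these lists, against 6.50% of all tested genes. Of 6 tested bile duct markers 5 had lower estimates (median -0.16), with Sox9, a duct transcription factor, at -0.56 ± 0.21 and an unadjusted edgeR p of 0.0135. All 5 tested fat cell markers had higher additive estimates (median 0.13), with 0 at an unadjusted p under 0.05. Their median was 0.01 in females and 0.23 in males, and 3 of the 5 had the same sign in both sexes. Lymphocyte markers were mostly below the filter, and the summed level of the list was 15.4 to 94.0 CPM in Cyp2b-null and 14.7 to 33.9 CPM in hCYP2B6-Tg libraries. The antibody light chain gene Igkc averaged 18.2 ± 17.7 and 6.6 ± 2.71 CPM (SD, n = 8), an estimate of -1.48 ± 0.52 (edgeR adjusted p = 0.619), with 53.9 CPM in null_female 3 and 37.6 CPM in null_male 4. In bulk liver, fewer cells of a type and less RNA per cell cannot be told apart.

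The additive model assumes one effect for both sexes. The genotype effect differed between the sexes in 5 of the 13470 genes at an edgeR adjusted p under 0.05 (0.0371%): Ccdc141, Rasgef1b, Wipf3, Pim1 and Ablim3. In these the additive estimates lay between -0.19 and 0.36 and were an average of effects that differed. Marveld1 and the other 23 genes named by p-value had interaction adjusted p-values of 0.358 or more.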

How the data were processed

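Liver RNA of 16 libraries was analysed from the deposited table of raw read counts, one row per gene symbol. Per the submitters' processing notes, the mouse build was GRCm38.p6 and the tools were GSNAP, Subread, Trimmomatic, FastQC and edgeR, without versions. The sources used here do not state the use of strand or the handling of multiply mapped reads. The table has 41585 rows, 16032 without a count; 27 names had become dates and 2 were repeated. Coordinates and promoters come from RefSeq (GRCm38.p6), which matched 37085 names, and transcripts from GENCODE.

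Genes were filtered with filterByExpr over the 4 groups (13470 kept) and scaled by TMM. Genotype was tested by quasi-likelihood in edgeR (F test) with robust estimation (sex + genotype, two-sided), Benjamini-Hochberg adjusted over all tested genes with a threshold of 0.05. Within-sex contrasts and the interaction come from a fit of the 4 groups. Rows of the Cyp2b window below the filter were tested by exact permutation within sex. The tools were edgeR 4.0.16, DESeq2 1.42.0 and limma 3.58.1 in R 4.3.3.

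A count of 0 allows up to 0.310 to 0.537 CPM in a library, taking 3 counts as the limit; limits and 95% intervals cover counting error only. No libraries looked like copies: in the 120 pairs, chi-square divided by its degrees of freedom ran from 6.53 to 46.6 (genes with 20 or more counts).

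Named genes were those called, then the next by p up to 24, with at least 1 CPM in one genotype and no predicted, pseudogene or clone name, the Cyp2b genes and their neighbours, and up to 4 called or 3 smallest-p members of each of 44 lists (884 genes). Further list members are given by their unadjusted p, and a few that the rules select are not reported here. The comparison, the lists and the rules were chosen with earlier results of these data known. Alternatives in scaling, filter, test, model, rows and libraries are given in the closing section. The fit was also run on simulated counts with no sex effect and with genotype effects larger than most reported here. That run does not cover effects of the sizes reported.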

Additional observations from a re-analysis of the deposited data

Results flagged for a closer look

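In groups of 4 libraries, values whose gap to the nearest of the others exceeded Dixon's critical share of the range were looked for in the 24 genes named by p-value, 96 groups in all, of which chance flags about 1 in 20. Ciart stood at 5.50 CPM in tg_female 5 against 2.27 to 2.68 in the other hCYP2B6-Tg females, and without that library its log2 fold change was 1.23. Agtr1a stood at 58.5 CPM in tg_male 3 against 51.0 to 51.7 in the other hCYP2B6-Tg males.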

How the results depend on the processing

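The main counts were 1 gene higher and 0 lower in hCYP2B6-Tg livers. The number higher was 0 with library totals as the scaling, with limma voom with or without quality weights, with edgeR without robust estimation, without a sex term and in females only. It was 2 with a minimum of 1 CPM in 4 libraries, with the mean of the within-sex contrasts and without null_female 1, null_female 3 and tg_male 4 (1 lower in that last). With no filter it was 11 (2 lower), with DESeq2 11 (8 lower) and in males only 11 (13 lower). Single omissions gave 0 to 4 higher (4 without null_female 3, 3 without tg_female 4, 2 without null_male 2, and 0 without each of the 8 libraries named for Marveld1) and 0 to 1 lower (1 without tg_female 4). Marveld1 was past the threshold in 7 of 15 other settings (adjusted p from 4.29e-05 to 0.864). The cause of these moves was not tested.

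Title numbers do not pair libraries by the labels, and deviations of same-numbered libraries correlated at 0.0748, -0.0514, -0.0624, 0.0388, 0.0519 and 0.0441. With the number as a replicate block, 0 genes were higher and 1 lower (Zbtb16).

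The clock count of 14 was 13 to 19 in 13 other settings and 4 in females only; these alternatives were added after the data were seen. Signs reversed for Cry1 (0.01 with voom quality weights, 0.17 without the 3 libraries, -0.12 to 0.08 in single omissions), Nr1d1 (-0.01 without the 3 libraries, -0.25 in males only, 0 to 0.21 in single omissions, lowest without null_female 1), and in females only for Nfil3 (0.25), Bhlhe40 (-0.07) and Rora (-0.04). The count of low Cyp2b rows past the exact test was 3 with summed counts and with edgeR, and 3 to 4 with single omissions. Depth limits the Cyp2b rows, which had at most 27 counts per library.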
